A study of Mus musculus with 8 samples.

Results

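Small nucleolar RNAs (snoRNAs) were read on arrays of brain vessels that had been purified with or without an enzymatic digestion. The members were taken by symbol: every transcript cluster (the probe group that the array summarizes as 1 transcript) with a single platform symbol starting Snor, with no filter on level. This gave 76 of 41345 clusters, with 74 distinct symbols. Of these, 47 were Snord (C/D box) and 28 were Snora (H/ACA box). The remaining 1 was Snorc, a protein-coding gene of cartilage cells whose symbol met the rule but which is not a snoRNA. It stood at 5.57 ± 0.24 and 5.24 ± 0.29 (mean ± SD, n = 4, limma adjusted p = 0.234), and counts over the 76 members include it. Both clusters of Snora19 held the same values on all 8 arrays, so that the 76 clusters carried 75 distinct measurements.

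Vessels came from 2-month-old C57Bl6 mice without transgene or treatment. In the undigested group the brain was homogenized mechanically, and in the digested group a warm incubation with Liberase and DNAseI took the place of the homogenization. There were 4 arrays per group, each from pooled vessels of several mice, and the replicate error below is therefore that between pools. The study asked which transcripts leave the vessel fraction when the perivascular astrocyte processes are detached. Warm enzymatic dissociation and the loss of these processes cannot be told apart in this design, and in bulk RNA fewer cells of a type and less RNA per cell cannot be told apart either. Values are log2 levels, and every difference is digested minus undigested. Clusters have different probes, so levels of different clusters are not compared as amounts.

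SnoRNAs are short stable RNAs of the nucleolus. C/D box snoRNAs guide ribose methylation of ribosomal RNA together with fibrillarin, Nop56, Nop58 and Snu13, whereas H/ACA box snoRNAs guide its pseudouridylation together with dyskerin, Nhp2, Nop10 and Gar1. Most vertebrate snoRNAs are cut from introns of host genes, many of which encode ribosomal proteins or serve mainly as snoRNA carriers, and a few are transcribed from promoters of their own. RNA had been isolated on silica columns, which in standard use retain RNAs of this size poorly, and probes inside an intron read the mature snoRNA and the unspliced host transcript alike.

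The vessel markers were present in both groups. The mean of the 12 endothelial markers ran from 10.6 to 10.9 on the undigested and from 10.1 to 10.3 on the digested arrays, with 8 of the 12 lowered and 0 raised (adjusted p below 0.05 in limma, the threshold used throughout). Of 8 astrocyte markers 6 were lowered (list mean 8.63 to 9.07 undigested, 7.29 to 7.71 digested), as were 4 of 7 markers of motile cilia, while 6 of 7 choroid plexus markers were raised (8.78 to 9.55 against 10.1 to 10.7). Of 8 mural cell markers 4 were lowered, Abcc9 the most (-1.44, limma adjusted p = 0.000976), and 1 was raised, Cnn1 (1.22, 0.0212), and 2 of 8 neuronal and 2 of 5 oligodendrocyte markers were raised, with 0 lowered. Of 5 microglial markers 0 passed in either direction. The part of these cell types in the values below was not tested. Array medians over all clusters lay between 5.58 and 5.71. No genome build was given for the array, so no position of a cluster is printed.

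In the RefSeq annotation of GRCm38.p6, 2 members shared bases with an annotated microRNA hairpin. Their hairpins are shown because they are the sequences at hand that lie within a member, and 1 of them overlaps Snora34, the most lowered member. The Mir1291 hairpin (chr15:98519762-98519878, minus strand, 117 bases) shared 73 bases with Snora34. The Mir3084-2 hairpin (chr19:60774329-60774397, minus strand, 69 bases) held all 56 annotated bases of Snora19. Both are written from the 5′ to the 3′ end, with the bases inside the snoRNA in capitals.
Mir1291 hairpin: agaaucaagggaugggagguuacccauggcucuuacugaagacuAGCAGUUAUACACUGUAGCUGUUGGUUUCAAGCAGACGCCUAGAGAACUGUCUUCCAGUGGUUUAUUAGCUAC
Mir3084-2 hairpin: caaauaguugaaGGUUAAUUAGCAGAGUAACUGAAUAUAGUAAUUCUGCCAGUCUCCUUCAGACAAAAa
Probes of the Snora34 cluster may thus lie in bases that belong to both RNAs.

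After digestion most members had a lower mean and few differences were large. The digested mean was below the undigested mean in 65 of 76 members (85.5%), against 52.6% of all 41345 clusters, and the median difference was -0.30 for the members and -0.01 for all clusters. This direction was relative to the scaling: with each array centred on the endothelial markers, the median was 0.21 for C/D and 0.28 for H/ACA clusters but 0.52 for all clusters, and 1 member was lowered and 25 raised where 71.4% of all clusters were raised. With limma, 11 were lowered (14.5%, against 6.31% of all clusters lowered), 3 were raised (3.95%, against 6.43% of all clusters raised) and 62 did not pass. The digested and undigested values did not overlap in 16 members with lower digested values (9.58% of all clusters) and in 3 with higher digested values (10.1% of all clusters). At an unadjusted p below 0.05, 28 were lower (14.0% of all clusters) and 3 higher (12.9% of all clusters). A level floor was set at the 90th percentile of 1405 olfactory and vomeronasal receptor clusters (4.68). The mean over all arrays was above it in 70 of 76 members, among them all 14 that passed the test, whose lowest mean level was 5.77. Both Snora19 clusters and 4 Snord clusters were at or under the floor.

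**Figure D1:**
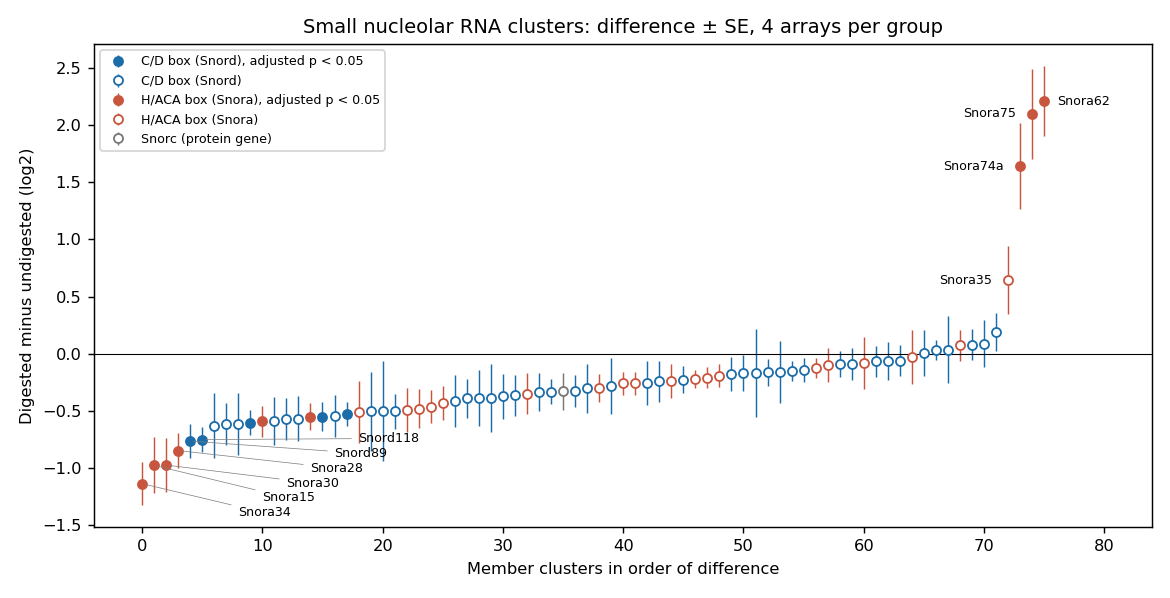
Digested minus undigested log2 difference of the 76 members in rank order, coloured by box class, with filled symbols for those past the test and the limma standard error as bars. Most clusters lie below 0 on the deposited scale, the lowest at -1.13 (class medians turn above 0 when arrays are centred on endothelial markers), and 3 H/ACA clusters stand apart at 1.64 to 2.21.

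The box classes had close medians and different extremes when all arrays were used. The median difference was -0.32 for the 47 C/D clusters and -0.26 for the 28 H/ACA clusters, and the digested mean was lower in 41 (87.2%) and 23 (82.1%) of them, on the deposited scale, with both medians above 0 under endothelial centring. C/D differences ran from -0.76 to 0.19, with 5 lowered (10.6%) and 0 raised. H/ACA differences ran from -1.13 to 2.21, with 6 lowered (21.4%) and 3 raised (10.7%). At an unadjusted p below 0.05, 14 C/D clusters were lower and 0 higher, against 14 and 3 of the H/ACA clusters (14.0% and 12.9% of all clusters). These shares turned with the undigested arrays used. Without undigested array 3, 13 C/D and 11 H/ACA clusters were lowered. Without undigested arrays 3 and 4, 24 of 47 C/D and 9 of 28 H/ACA clusters were lowered, and without undigested arrays 1 and 2 the medians were -0.02 and -0.19. The difference between the classes was not tested, since the members were chosen with results of these arrays known. As annotated, H/ACA genes were also the longer ones, with a median of 118 bases (56 to 205) against 68 bases (48 to 221) for C/D genes. Genes of lowered clusters had a median length of 116 bases and those of raised clusters 130 bases, while genes of clusters that did not pass had 75.5 bases.

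The 3 raised members were all H/ACA snoRNAs. Snora62, also called E2 and carried by the ribosomal protein gene Rpsa, stood at 9.86, 9.85, 8.49 and 8.78 on undigested arrays 1 to 4 and at 11.12, 11.45, 11.63 and 11.61 on digested arrays 1 to 4. Every digested array was above every undigested one, and undigested arrays 3 and 4 were the lowest. The mean rose from 9.25 ± 0.71 to 11.45 ± 0.24 (SD, n = 4), a difference of 2.21 ± 0.31 (SE) or 4.62-fold (limma adjusted p = 0.00301).

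Snora75, also called U23 and carried by the nucleolin gene Ncl, gave 8.24, 7.98, 6.43 and 6.63 undigested and 9.01, 9.41, 9.64 and 9.61 digested. Here too the groups did not overlap, and undigested arrays 3 and 4 lay more than 1 log2 unit below undigested arrays 1 and 2. The difference was 2.10 ± 0.39 (SE), or 4.28-fold (limma adjusted p = 0.00942).

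Snora74a, also called U19 and carried by the snoRNA host gene Snhg4, gave 7.76, 7.39, 5.95 and 6.14 undigested and 8.11, 8.52, 8.54 and 8.62 digested. The groups did not overlap, and the same undigested arrays were low. The difference was 1.64 ± 0.38 (SE), or 3.11-fold (limma adjusted p = 0.0217). This call was lost when single arrays were left out, with an adjusted p of 0.0522 without digested array 3, 0.0555 without digested array 4 and 0.0536 without undigested array 4.

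Because undigested arrays 3 and 4 held the lowest values of all 3 raised members, the comparison was also run without either pair of undigested arrays. Without undigested arrays 3 and 4 the differences were 1.60 for Snora62, 1.31 for Snora75 and 0.88 for Snora74a, and without undigested arrays 1 and 2 they were 2.82, 2.89 and 2.40. All 3 passed the test with either pair left out (limma adjusted p = 0.00365, 0.00986 and 0.0246 without arrays 3 and 4, and 0.00395 for each without arrays 1 and 2).

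None of their host transcripts passed the test. Rpsa, a component of the small ribosomal subunit, gave 6.55 ± 0.08 and 6.62 ± 0.09 (SD, n = 4), a difference of 0.07 ± 0.08 (SE, limma adjusted p = 0.662), on the cluster next to Snora62. A brighter Rpsa cluster, numbered among those of another chromosome, was not used. Ncl, a nucleolar protein of ribosome assembly, changed by 0.07 ± 0.09 (SE, limma adjusted p = 0.70), and Snhg4 by -0.07 ± 0.08 (limma adjusted p = 0.645). Ncl also carries the C/D snoRNA Snord82, which stood at 11.92, 11.79, 11.60 and 11.93 undigested and 11.58, 11.85, 11.43 and 11.46 digested. These groups overlapped, with a difference of -0.23 ± 0.12 (SE, limma adjusted p = 0.258). Under endothelial centring it was 0.31 and that of Snora75 2.63, so that the sign of Snord82 depended on the scaling.

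The value of each raised snoRNA minus that of its host on the same array is unchanged by centring the array, though a quantile normalization can change it. Its mean was higher after digestion by 2.14 for Snora62 minus Rpsa, by 2.03 for Snora75 minus Ncl and by 1.71 for Snora74a minus Snhg4. For Snora75 minus Snord82, both carried by Ncl, it was higher by 2.32. These shifts are a description with no test, since the members had been picked as raised and their hosts seen to change little.

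**Figure D2:**
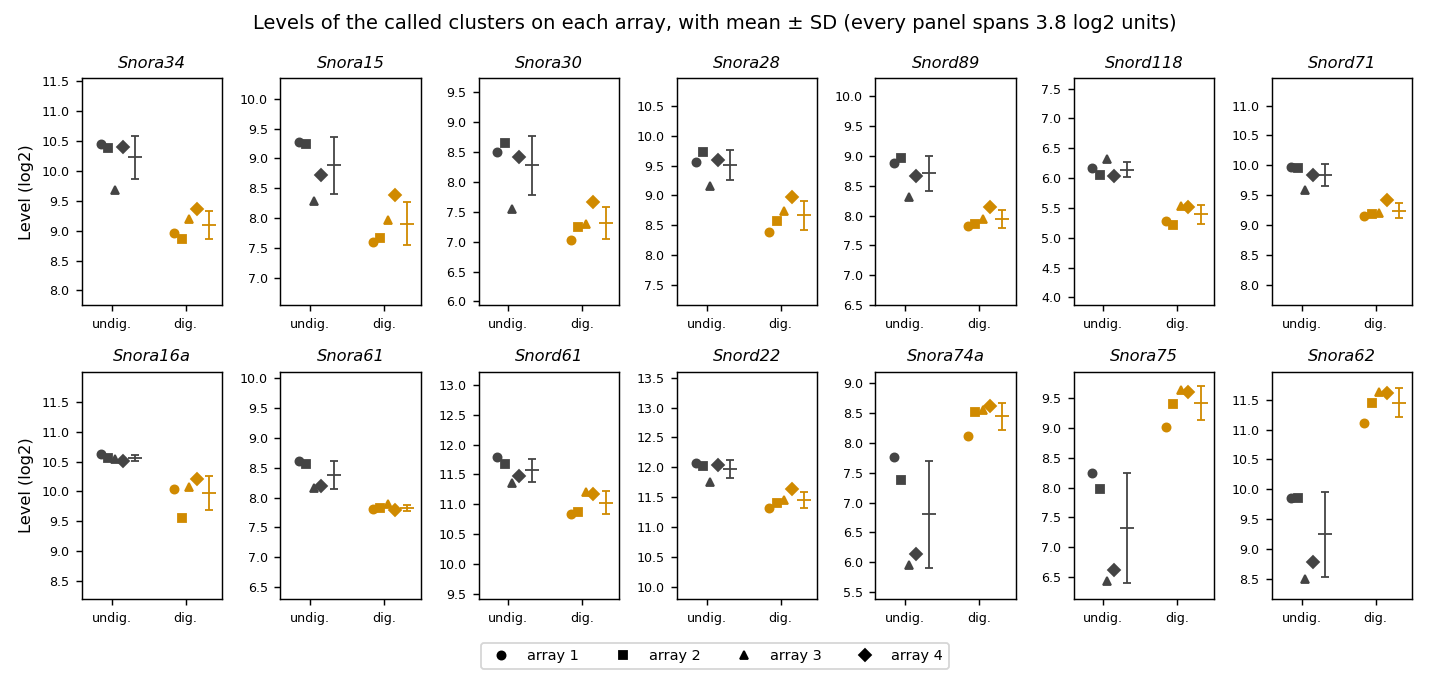
Log2 level of each snoRNA cluster that passed the test on every array, undigested and digested, with the group mean and SD beside the points. The 3 raised clusters show the widest undigested spread, and of the 11 lowered clusters only Snora15 and Snora30 overlap between the groups.

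All 11 lowered members depended in size on the scaling. With arrays centred on the endothelial markers Snora34 alone kept its call (-0.60, limma adjusted p = 0.0135). Snora15 and Snora30 stood at -0.44, Snora28 at -0.31, Snord89 at -0.23 and Snord118 at -0.21 (adjusted p from 0.0717 to 0.233). The other 5, Snord71, Snora16a, Snora61, Snord61 and Snord22, lay between -0.064 and 0.013 (0.679 to 0.937).

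Among the lowered H/ACA members, Snora34 had the largest difference. It gave 10.45, 10.38, 9.68 and 10.40 undigested and 8.96, 8.86, 9.20 and 9.36 digested. Undigested array 3 lay nearest to the digested arrays without reaching them. The mean fell from 10.23 ± 0.36 to 9.09 ± 0.23 (SD, n = 4), by 1.13 on the log2 scale (limma adjusted p = 0.00564), and its host Kansl2, a subunit of a histone acetyltransferase complex, changed by -0.13 ± 0.10 (SE, limma adjusted p = 0.436). Snora28, in the translation factor gene Eif5, gave 9.56, 9.73, 9.16 and 9.60 undigested and 8.39, 8.56, 8.74 and 8.97 digested. The groups did not overlap, and the difference was -0.85 ± 0.16 (SE, 1.80-fold, limma adjusted p = 0.00881). Eif5 changed by -0.08 (limma adjusted p = 0.577).

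Snora16a and Snora61 both lie in Snhg12, a non-coding snoRNA host gene. Snora16a gave 10.63, 10.55, 10.54 and 10.51 undigested and 10.04, 9.56, 10.07 and 10.20 digested, and Snora61 gave 8.61, 8.56, 8.16 and 8.19 against 7.81, 7.82, 7.89 and 7.79. Neither overlapped between groups, and undigested arrays 1 and 2 stood above 3 and 4 in both, by 0.41 in Snora61 and by 0.07 in Snora16a. The differences were -0.59 ± 0.13 and -0.55 ± 0.12 (SE, 1.51-fold and 1.46-fold, limma adjusted p = 0.0204 and 0.0168). The call of Snora16a was lost without undigested array 1 (adjusted p = 0.0579) or 2 (0.0514). The other members in Snhg12 gave -0.49 for Snora44 (limma adjusted p = 0.14) and -0.50 for the C/D member Snord99 (0.513), while Snhg12 itself gave 0.28 ± 0.11 (0.149).

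Snora15, in the chaperonin gene Cct6a, gave 9.27, 9.25, 8.29 and 8.73 undigested and 7.61, 7.67, 7.97 and 8.39 digested. Snora30, in the chromatin remodeller gene Srcap, gave 8.51, 8.65, 7.55 and 8.42 against 7.02, 7.25, 7.29 and 7.67. In both, undigested array 3 fell below digested array 4, so that the groups overlapped. Both were lowered by 0.97 in the mean (1.96-fold, limma adjusted p = 0.0317 and 0.0265). Each call was lost without any 1 of undigested arrays 1, 2 and 4 and digested arrays 1, 2 and 3, with adjusted p from 0.0555 to 0.0846 for Snora15 and from 0.059 to 0.0744 for Snora30.

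The 5 lowered C/D members included Snord118, or U8. This RNA has its own promoter and is needed, as shown in Xenopus, for maturation of the large-subunit ribosomal RNAs, and mutations of the human gene cause a small vessel disease of the brain with calcifications and cysts. Snord118 gave 6.16, 6.06, 6.32 and 6.03 undigested and 5.29, 5.22, 5.54 and 5.52 digested. The groups were well apart, and undigested arrays 1 and 2 did not stand above 3 and 4. The mean fell from 6.14 ± 0.13 to 5.39 ± 0.16 (SD, n = 4), by 0.75 or 1.68-fold (limma adjusted p = 0.00324). It was the sole member still lowered when undigested arrays 1 and 2 were left out (-0.78, limma adjusted p = 0.032). Its neighbour Tmem107, a gene of the ciliary transition zone, gave 6.52 ± 0.28 and 6.67 ± 0.27 (limma adjusted p = 0.62), whereas 4 of 7 motile cilia markers were lowered.

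Snord89, for which no containing gene was found, gave 8.88, 8.97, 8.31 and 8.67 undigested and 7.83, 7.86, 7.94 and 8.15 digested. The lowest undigested array, array 3, was above every digested array, and the difference was -0.76 ± 0.15 (SE, 1.70-fold, limma adjusted p = 0.0108). Its neighbour Rnf149 gave -0.29 and did not pass (limma adjusted p = 0.056). Snord71, in the clathrin adaptor gene Ap1g1, gave 9.96, 9.95, 9.58 and 9.84 against 9.14, 9.18, 9.20 and 9.42. Its groups did not overlap (-0.60 ± 0.11, SE, 1.52-fold, limma adjusted p = 0.00884), while Ap1g1 gave 0.33 (0.0769).

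Snord61, in the RNA-binding protein gene Rbmx, gave 11.79, 11.68, 11.36 and 11.47 undigested and 10.84, 10.87, 11.21 and 11.17 digested. The groups did not overlap, with digested arrays 3 and 4 nearest to the undigested ones. The difference was -0.55 ± 0.13 (SE, 1.46-fold, limma adjusted p = 0.0238), and the call was lost without digested array 1 (0.0642) or 2 (0.0584) and without undigested array 1 (0.0646) or 2 (0.0662). Rbmx gave -0.26 (limma adjusted p = 0.0548), the lowest difference of the 41 measured hosts.

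Snord22, or U22, a snoRNA of Snhg1 needed in Xenopus for maturation of the small-subunit ribosomal RNA, gave 12.07, 12.02, 11.75 and 12.04 undigested and 11.32, 11.40, 11.45 and 11.63 digested. The groups did not overlap and undigested array 3 was again the lowest of its group. The difference was -0.52 ± 0.10 (SE, 1.44-fold, limma adjusted p = 0.0127), and Snhg1 gave 0.02 (0.904).

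Other snoRNAs that act in cleavage or folding of the ribosomal precursor did not pass the test. Snord13, or U13, which is transcribed on its own and is required for acetylation of the small-subunit RNA, gave 10.48 ± 0.19 and 10.32 ± 0.15 (limma adjusted p = 0.423). Snora73a and Snora73b, the U17 RNAs of Snhg3 whose yeast counterpart is needed for small-subunit RNA, gave differences of -0.30 ± 0.12 and -0.19 ± 0.10 (SE, limma adjusted p = 0.147 and 0.262). With Snord118, 4 of the 10 listed processing snoRNAs were measured as single-symbol clusters, of which 1 was lowered and 0 raised. The imprinted C/D clusters of the Snrpn and Dlk1 loci had 0 single-symbol clusters and are not described here.

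Snora62 and Snord22, described above, were among the 3 clusters with the highest level in their class, and the other 4 did not pass the test. Snora33, in the ribosomal protein gene Rps12, gave 12.89, 12.93, 12.88 and 12.80 undigested and 12.57, 12.60, 12.75 and 12.70 digested in its brighter cluster. The groups did not overlap, but the difference of -0.22 ± 0.08 (SE) did not pass (limma adjusted p = 0.106), and the other Snora33 cluster gave -0.03 ± 0.23 (0.96). Snora21 gave -0.35 ± 0.18 (0.257) and passed only without undigested array 3 (-0.53, 0.0307) among the single arrays left out. Snord87 gave -0.09 ± 0.12 (0.681), and Snord82 of Ncl is given above. Of the 62 members that did not pass, 9 had a limma adjusted p below 0.1. The groups did not overlap in 7 of the 62, all with lower digested values, against 9.58% of all clusters. Among these were both clusters of Snora19, which hold the same values and lie under the floor. Snord35b (-0.61, 0.0615), Snord104 (-0.50, 0.063) and Snora68 (-0.46, 0.0663) were also among them, named after their values were seen.

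For most snoRNA clusters the pair of undigested arrays 1 and 2 stood above the pair 3 and 4. In both class medians undigested array 4 lay between array 3 and arrays 1 and 2. The median level of the 47 C/D clusters was 8.88, 8.97, 7.80 and 8.16 on undigested arrays 1 to 4 and 7.83, 7.98, 7.94 and 8.15 on digested arrays 1 to 4. For the 28 H/ACA clusters it was 8.48, 8.45, 7.62 and 8.05, and 7.71, 7.77, 7.87 and 7.89. Undigested arrays 1 and 2 were thus high in both classes, while undigested array 3 lay below every digested array. Undigested arrays 1 and 2 were both above 3 and 4 in 55 of 76 members (72.4%), in 37 C/D (78.7%) and 17 H/ACA (60.7%) clusters, against 10330 of all 41345 clusters and 7 of 41 measured host genes (17.1%). The opposite order was found in 3 members (3.95%) and in 21.5% of all clusters. The median gap between the pairs was 0.43 for the members, 0.02 for all clusters and -0.06 for host genes. The split was not limited to snoRNAs. Cldn5 had the order of the snoRNAs (10.82, 10.78, 10.45 and 10.12 undigested). Aqp4 (8.77, 8.67, 9.23 and 9.28) and Otx2 (7.39, 7.45, 8.09 and 8.16) had the opposite order. For Aqp4, digested arrays 3 and 4 also stood above 1 and 2 (6.31, 6.22, 6.75 and 6.74). These genes were named after their values were seen. No label names this split.

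**Figure D3:**
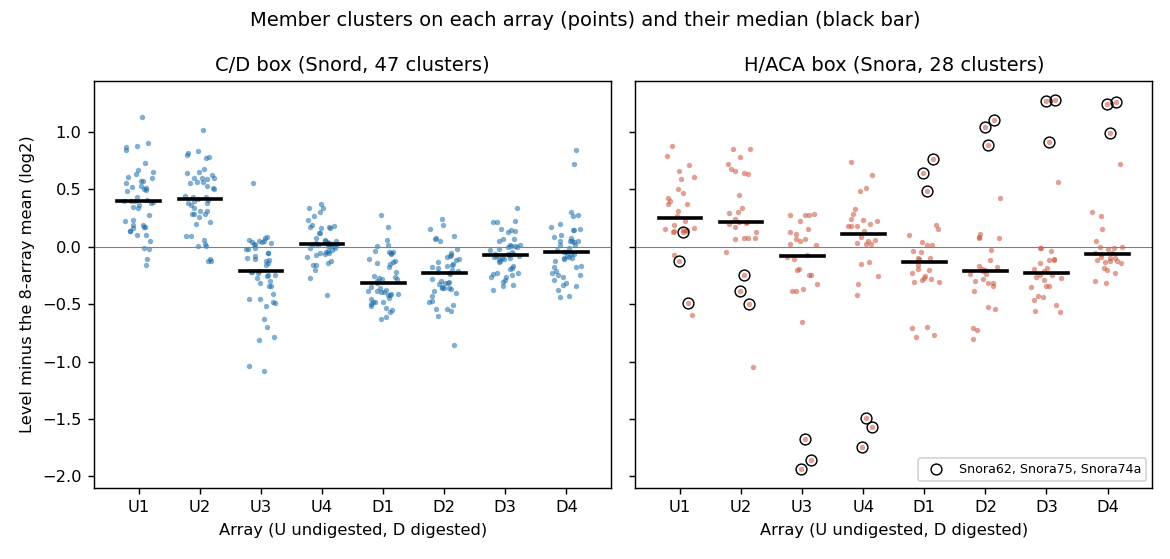
Deviation of each snoRNA cluster on each array from its own mean over the 8 arrays, in log2 units, by box class, with the class median marked. Undigested arrays 1 and 2 lie above the rest in both classes, and undigested array 3 lies lowest among the undigested arrays.

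The widest gaps between the pairs were those of Snord99 (1.65), Snora75 (1.58), Snora74a (1.52), Snord58b (1.47), Snora62 (1.22) and Snord1b (1.20). Snord99, a C/D member of Snhg12, gave 11.24, 11.13, 9.03 and 10.05 undigested and 9.57, 9.94, 10.24 and 9.68 digested. The digested values all lay within the undigested range. All 3 raised members were among the 6 with the widest gaps, although in these the digested arrays lay above the undigested range. The SD was larger among the undigested than among the digested arrays in 55 of 76 members (72.4%), against 48.0% of all clusters, with median SDs of 0.288 and 0.192.

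The count of lowered members depended on these arrays. Without undigested arrays 1 and 2, 1 member was lowered and 3 were raised, with medians of -0.02 for C/D and -0.19 for H/ACA clusters. Of all clusters 2.6% were then lowered and 1.49% raised. Without undigested arrays 3 and 4, 33 were lowered and 4 raised, with medians of -0.60 and -0.41. Here 4.83% of all clusters were lowered and 4.99% raised. Both fits used 2 undigested arrays. Leaving out single arrays gave 7 lowered members without undigested array 1 or 2 and 24 without undigested array 3, where 4.14%, 4.13% and 5.9% of all clusters were lowered. What set these arrays apart was not tested.

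Host genes were read from the gene that contains each snoRNA in the annotation. Cluster numbers follow the order of genes along the chromosomes, so a host value was taken only from a cluster numbered within 50 of the snoRNA cluster. Of the 76 members, 72 lay within another gene, and 56 had a host measured in this way. These hosts were 41 genes, of which 0 were lowered (6.31% of all clusters) and 8 were raised (19.5%, against 6.43% of all clusters), with a median difference of 0.12. The raised hosts include Rps3a1, host of Snord73a and Snord73b, the 1 host under the level floor (3.90 undigested and 4.25 digested, limma adjusted p = 0.0479). The difference of the snoRNA was below that of its host in 50 of 56 pairs. In 32 pairs the snoRNA was lower and the host higher after digestion, and in 15 both were lower. Across the 56 pairs the differences of snoRNA and host had a Pearson r of 0.08 and a Spearman rho of 0.11, given as a description, since 27 members share 12 hosts and all share the arrays. Of the 12 called members with a measured host, 0 had a host that also passed. The hosts of the 9 lowered members with a measured host ran from -0.26 to 0.33, 5 of them above 0.

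**Figure D4:**
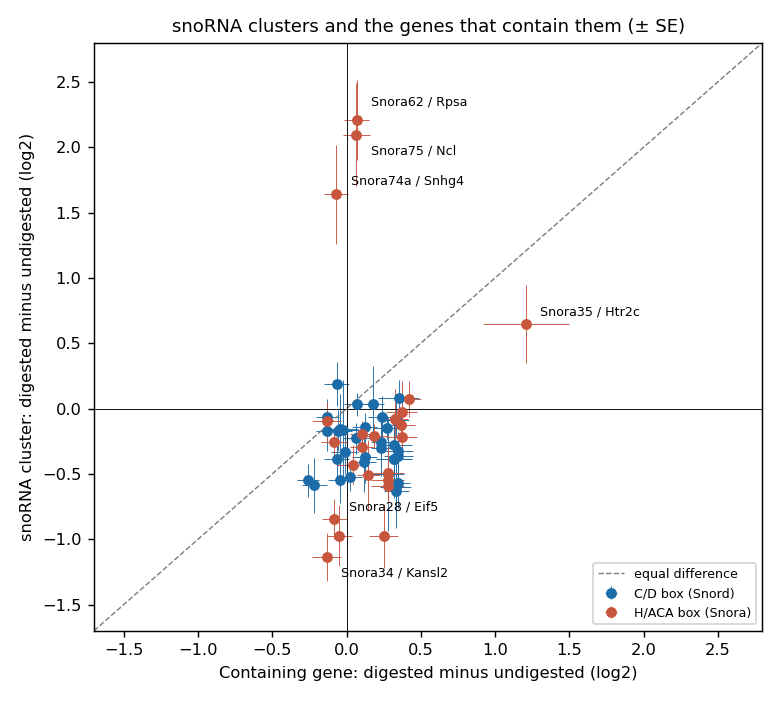
Digested minus undigested log2 difference of each snoRNA cluster (vertical axis) against that of the gene containing it (horizontal axis), for 56 pairs. Most pairs lie below the line of equal difference, and Snora62, Snora75 and Snora74a lie far above it.

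Several raised hosts held snoRNAs that did not pass the test. Rpl4, of the large ribosomal subunit, was raised by 0.35 (limma adjusted p = 0.0264), and its member Snord16a gave 10.88, 10.96, 10.23 and 10.54 undigested and 9.80, 9.81, 10.32 and 10.41 digested (-0.57 ± 0.20, SE, limma adjusted p = 0.098). The groups overlapped through undigested array 3. Rpl32 was raised by 0.42 (0.0102), with 0.07 ± 0.14 for its H/ACA member Snora7a (0.778). Gnl3, a nucleolar GTP-binding protein gene, was raised by 0.34 (0.0333), and its members Snord69 and Snord19 gave -0.63 and -0.09 (0.19 and 0.742). These pairs were named after their values were seen.

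Within each group of arrays Snora35 had the same order as its host. This H/ACA snoRNA lies in an intron of the serotonin receptor gene Htr2c, which is strongly expressed in the choroid plexus. It gave 9.24, 8.79, 10.12 and 9.89 undigested and 10.02, 9.65, 10.40 and 10.55 digested, with undigested arrays 3 and 4 above 1 and 2 (gap -0.99). The groups overlapped, and the difference of 0.65 ± 0.30 (SE) did not pass (limma adjusted p = 0.202). It was 1.18 under endothelial centring (0.00608), 1.14 without undigested arrays 3 and 4 (0.0372) and 0.15 without undigested arrays 1 and 2 (0.792). Htr2c gave 9.23, 9.09, 10.26 and 10.12 undigested and 10.81, 10.39, 11.04 and 11.28 digested. Its groups did not overlap, and it was raised by 1.21 ± 0.29 (SE, 2.31-fold, limma adjusted p = 0.0263). The 7 measured choroid plexus markers had a median difference of 1.35, and their part in the level of Snora35 was not tested.

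Of the 7 measured core proteins that bind snoRNAs, 0 were lowered. Of the C/D core proteins Nop56, Nop58 and Snu13 gave -0.01, 0.23 and 0.19, and 0 of 3 passed (limma adjusted p = 0.0629 for Nop58). Of the 4 H/ACA core proteins 2 were raised, Nhp2 by 0.50 (1.41-fold, 0.00844) and Nop10 by 0.30 (1.23-fold, 0.0432), while dyskerin (Dkc1) gave 0.23 (0.116) and Gar1 0.08. Among 15 assembly factors 1 was raised, Naf1, which loads dyskerin complexes, by 0.68 (1.60-fold, limma adjusted p = 0.0372). Of 22 genes of ribosomal RNA synthesis and processing 7 were raised and 1 lowered. Among these lists Snu13 and Npm1 were read on clusters numbered among those of another chromosome, which can be copies of the gene. Polr1a and Polr1d, subunits of RNA polymerase I, rose by 0.55 and 0.54 (limma adjusted p = 0.00645 and 0.00982). Taf1d, a factor of polymerase I initiation whose introns also hold snoRNAs, fell by 0.59 (1.51-fold, 0.00257). Of 20 measured non-coding snoRNA hosts, 1 was raised, Zfas1 by 0.56 (1.48-fold, 0.0138), and 0 were lowered.

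Values of other small and nuclear RNAs varied by class, and some classes were mostly lower as the members were. The 6 Scarna clusters, which guide modification of spliceosomal RNAs in Cajal bodies, had 0 calls in either direction with limma (0 also at an unadjusted p below 0.05), and differences from -0.10 to 0.16. Of 511 microRNA clusters 107 were lowered (20.9%) and 1 was raised (0.196%), with a median of -0.16, though only 248 were above the floor. Of 10 other nuclear or polymerase III RNAs 3 were raised and 0 lowered. These were the Y RNA genes Rny3 and Rny1, by 0.88 and 0.48 (limma adjusted p = 0.0252 and 0.0121), and the RNase P RNA gene Rpph1, by 0.63 (0.0102). The 43 clusters with several symbols that included a Snord or Snora were no members, since their signal is shared with a host or another gene. Of these 4 were lowered (9.3%) and 0 raised, and 37 (86.0%) had a lower digested mean, with a median of -0.06. Among the 43, 16 included a Snord116l symbol and were not looked at apart. Whether any of these classes differs from the snoRNA clusters was not tested.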

How the data were processed

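Affymetrix Mouse Gene 2.0 arrays of 4 undigested and 4 digested vessel preparations were used. The study names Expression Console, EASANA on FAST DB, antigenomic background correction and quantile normalization. Their deposited values are log2 levels made by the authors, 1 per cluster and array. The log2 scale was read from the values. Whether they had that normalization, and which program wrote them, is not given in the sources used here.

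The comparison used limma 3.58.1 under R 4.3.3. A group model with no covariate was fitted to each of the 41345 clusters (lmFit, then eBayes), two-sided p-values were adjusted by Benjamini-Hochberg over the whole table, and the threshold was an adjusted p of 0.05. No level filter was used. Symbols came from the platform annotation (23521 clusters with 1 symbol, 1820 with several, 16004 with none), and all 76 member Entrez identifiers were found in the RefSeq gene table. A host was the longest other gene containing the snoRNA. That table has no strand, so strand was not checked, and 6 members lay in several genes. Of the host's clusters the one with the highest level within 50 cluster numbers of the snoRNA was used, since 98.9% of 23325 placed clusters lay on the chromosome of most of their 10 neighbours on either side. For 8 containing genes, Rpsa among them, the brightest cluster of the symbol lay outside this window and was not used. The 4 arrays per group limit the precision. Whether probes also match copies of a snoRNA elsewhere was not examined.

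Members and lists were chosen with earlier results of these data known. Named members were, within each class, the up to 8 most lowered and raised without overlap, the 3 with the highest level, the processing list, and their hosts, and for other lists the 2 most changed each way. Others were named after their values were seen. Alternatives covered centring, a second quantile normalization, level filters, eBayes settings, array weights, means per symbol, the methods' t-test, a block for replicate number and leaving out arrays. The steps were tested on simulated data, in which 42% of 1.5-fold and 84% of 2-fold changes were recovered. Noise was drawn independently for each value, so a split between arrays was not simulated. Tables and figures came from Python 3.11.15 (pandas 2.3.3, numpy 2.4.6, matplotlib 3.10.9).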

Additional observations from a re-analysis of the deposited data

Results flagged for a closer look

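Within the named members and their groups, 48 groups of 4 arrays were searched for an array far from the others by Dixon's test, in which chance flags about 5% of groups. There were 2 such arrays, both undigested array 3. Snora34 stood there at 9.68, against 10.38 to 10.45 on the other undigested arrays. Snord22 stood there at 11.75, against 12.02 to 12.07. In both cases the low array was still above every digested array.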

How the results depend on the processing

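The main counts were 11 lowered and 3 raised snoRNA clusters, 5 and 0 for C/D and 6 and 3 for H/ACA clusters. Centring each array on the 12 endothelial markers moved the median of all clusters to 0.52 and left 1 lowered and 25 raised members, 0 and 14 for C/D and 1 and 11 for H/ACA. Both class medians then lay above 0, at 0.21 for C/D and 0.28 for H/ACA, though below that of all clusters, of which 71.4% were raised. Under this centring differences turned positive for Snord22 (0.013), Snora21 (0.19), Snora73a (0.24), Snord82 (0.31), the brighter Snora33 cluster (0.32), Snora73b (0.34), Snord13 (0.37) and Snord87 (0.45), and among the lowered members only Snora34 kept its call. Median centring and a second quantile normalization each gave 11 lowered and 3 raised. Of all clusters 4.28% were lowered and 10.3% raised with the former, and 5.6% and 7.05% with the latter. Array weights gave 8 lowered C/D clusters, where 6.73% of all clusters were lowered. A filter 1 log2 unit above the floor gave 9, where 12.4% of all clusters kept by the filter were lowered. The methods' t-test gave 7 lowered and 1 raised members after Benjamini-Hochberg adjustment, 3 and 1 of them H/ACA, without Snora75 (0.0538) and Snora74a (0.0881). This t-test lowered 3.72% and raised 4.62% of all clusters. At an unadjusted p of 0.05 and 2-fold it gave 1 lowered and 3 raised. The share of all clusters at that setting is not given here, so these counts are not read against it. Without undigested arrays 1 and 2, 1 member was lowered (1 C/D, 0 H/ACA), and Snord87 turned to 0.088. Without undigested arrays 3 and 4, 33 were lowered, 24 of them C/D.

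With 1 array left out at a time, 7 to 24 members were lowered and 2 to 3 raised, 4 to 13 C/D clusters were lowered and 0 raised, and 3 to 11 H/ACA clusters were lowered and 2 to 3 raised. Of all clusters 4.13% to 5.9% were lowered and 3.82% to 5.81% raised. The medians ran from -0.45 to -0.21 for C/D and from -0.31 to -0.23 for H/ACA clusters. Of 20 alternatives Snora62 kept its call in 20, Snora75, Snora34 and Snord118 in 19 each, Snora74a in 16 and Snora15 in 10. The cause of the changes was not tested.

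Whether replicate numbers pair the arrays was not settled by the values. Deviations of arrays with the same number correlated at 0.06, 0.18, -0.04 and 0.18 for numbers 1 to 4. The highest correlation of each undigested array with a digested array of another number was 0.15, 0.02, 0.20 and 0.04. The same number thus gave the higher value for numbers 2 and 4 and the lower one for numbers 1 and 3. With the replicate number as a block, 10 members were lowered and 4 raised, where 5.39% of all clusters were lowered and 5.47% raised. Snora15 (limma adjusted p = 0.0728) and Snord61 (0.075) lost their calls and Snora35 gained one (0.0235).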
